A study of Mus musculus with 4 samples.

Results

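The Hox gene clusters were described from the regions called for H3K27me3 and H3K4me3 in mouse rosette stem cells, a pluripotent state that comes after the naive state of the early embryo. Members were all regions of the 4 deposited lists that overlapped 1 of 4 windows on mouse build mm9 by at least 1 bp. The windows were chromosome 6 from 52.05 to 52.26 Mb for Hoxa, chromosome 11 from 96.03 to 96.26 Mb for Hoxb, chromosome 15 from 102.68 to 102.97 Mb for Hoxc and chromosome 2 from 74.45 to 74.65 Mb for Hoxd. They held 174 of the 76945 regions of all lists. Of these, 17 (CGR8) and 20 (R1) were H3K27me3 regions and 63 and 74 were H3K4me3 regions. The measured cells came from the embryonic stem cell lines CGR8, of strain 129/Ola, and R1, of strain 129, each a single established line. Both lines had spent 8 days in N2B27 medium with the cytokine LIF, 2 µM IWP2, an inhibitor of WNT secretion, and 1 µM PD325901, a MEK inhibitor. Chromatin immunoprecipitation and sequencing gave 1 library for each line and mark, so a difference between CGR8 and R1 has no replicate check, and a mean ± SD below runs over the 2 lines.

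Hox genes encode homeodomain transcription factors that give cells their identity along the body axis. They lie in clusters in the order in which they are switched on in the embryo, the low-numbered genes first and nearer the head, the high-numbered genes last and nearer the tail. In pluripotent cells the clusters are held silent by Polycomb repressive complex 2, which deposits H3K27me3. H3K4me3, a mark of CpG-rich promoters, is known to be present at many of these silent promoters as well, a pairing called bivalent. In RefSeq the gene order along the chromosome, from the low to the high coordinate, starts with Hoxa2 and ends with Hoxa13 among the listed genes of the Hoxa cluster. It runs the other way in the rest, from Hoxb13 to Hoxb1, from Hoxc13 to Hoxc4 and from Hoxd13 to Hoxd1. The gene positions used here are on another build (GRCm38.p6) and were not converted, so this order gives the direction of each cluster, and no called region is assigned to a gene.

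Promoters were printed to show the CpG content of the genes that the regions surround. RefSeq promoter windows, 250 bases before to 50 after the start of a gene, were matched for 22 of the 38 listed Hox genes (24 windows). These were 9 of 10 genes in Hoxa, 3 of 10 in Hoxb, 1 of 9 in Hoxc and 9 of 9 in Hoxd. The motif CG, which reads the same on both strands, occurred in all 24 of them and in 94.6% of the 32851 promoter windows of the table. The median was 14.5 CpG per window for the Hox genes and 7 for all windows. A count of at least 10 CpG was reached by 17 of 24 Hox windows (70.8%) and by 43.5% of all windows. The TATA motif TATAAA, sought on both strands and not overlapping CG, was in 4 of the 24 windows (16.7%) and in 13.6% of all. The windows with the most CpG in each cluster and 1 with the fewest follow, 5′ to 3′, with each CpG in capitals. They hold 45 CpG (Hoxa13), 37 (Hoxd13), 14 (Hoxb4), 9 (Hoxc4, the single window of its cluster) and 4 (Hoxd4). Hoxa13 and Hoxd13 pattern the digits and the end of the body axis, and the group 4 genes act in the hindbrain and neck.
Hoxa13 (GRCm38.p6 chr6:52260831-52261130, minus strand): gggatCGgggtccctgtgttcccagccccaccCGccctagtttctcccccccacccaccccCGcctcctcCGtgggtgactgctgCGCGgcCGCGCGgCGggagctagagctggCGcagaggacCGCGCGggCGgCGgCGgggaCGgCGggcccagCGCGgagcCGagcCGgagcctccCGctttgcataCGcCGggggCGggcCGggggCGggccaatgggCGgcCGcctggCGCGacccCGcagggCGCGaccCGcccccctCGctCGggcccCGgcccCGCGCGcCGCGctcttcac
Hoxd13 (GRCm38.p6 chr2:74667975-74668274, plus strand): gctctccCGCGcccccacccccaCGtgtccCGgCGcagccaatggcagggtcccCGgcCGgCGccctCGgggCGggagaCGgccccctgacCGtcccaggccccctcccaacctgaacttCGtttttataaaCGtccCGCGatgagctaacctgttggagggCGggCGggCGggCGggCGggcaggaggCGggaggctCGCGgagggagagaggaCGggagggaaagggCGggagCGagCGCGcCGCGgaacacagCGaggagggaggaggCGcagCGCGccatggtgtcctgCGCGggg
Hoxb4 (GRCm38.p6 chr11:96318017-96318316, plus strand): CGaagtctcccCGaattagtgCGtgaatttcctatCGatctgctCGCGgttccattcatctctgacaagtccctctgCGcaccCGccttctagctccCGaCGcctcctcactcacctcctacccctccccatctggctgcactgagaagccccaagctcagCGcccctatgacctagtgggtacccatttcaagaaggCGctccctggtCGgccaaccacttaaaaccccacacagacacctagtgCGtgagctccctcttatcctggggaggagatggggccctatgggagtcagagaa
Hoxc4 (GRCm38.p6 chr15:103034145-103034444, plus strand): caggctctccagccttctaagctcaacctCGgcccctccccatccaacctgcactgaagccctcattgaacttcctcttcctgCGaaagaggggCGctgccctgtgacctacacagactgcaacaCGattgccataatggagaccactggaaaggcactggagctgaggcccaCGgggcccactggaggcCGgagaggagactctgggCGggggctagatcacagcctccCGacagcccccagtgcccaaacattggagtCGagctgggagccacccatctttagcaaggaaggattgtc
Hoxd4 (GRCm38.p6 chr2:74721728-74722027, plus strand): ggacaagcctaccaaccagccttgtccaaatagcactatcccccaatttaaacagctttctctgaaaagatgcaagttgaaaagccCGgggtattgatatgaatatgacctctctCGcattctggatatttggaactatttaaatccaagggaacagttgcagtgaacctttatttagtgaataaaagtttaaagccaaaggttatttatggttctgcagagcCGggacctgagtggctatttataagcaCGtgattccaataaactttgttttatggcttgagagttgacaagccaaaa
Hoxa13 and Hoxd13 thus had the highest CpG counts of the matched windows, while Hoxd4 shared the lowest count, 4, with Hoxa9 and 1 of the 2 windows of Hoxd11. The group 9 to 13 genes, active in the trunk, limbs and tail, were therefore at both ends of the range. Whether CpG content and the marks vary together in the clusters was not tested, since promoters were not placed on the called regions.

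The deposited lists give a position and a score for each region, and the score has no stated unit. It is used here within a list, also as a percentile (100 is the highest of the list), and as a ratio for regions paired between lines. The depth of the libraries in reads is unknown. The scores of the shortest regions fitted a mean of 2.11 (CGR8) and 1.92 (R1) reads per 200 bp for H3K27me3. For H3K4me3 they fitted 0.740 and 0.706, so by this fit CGR8 was the deeper library for both marks. The R1 value for H3K27me3 rests on 2 regions. Since no mm9 annotation was used, the cell type was not checked against marker genes.

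Every window held a broad H3K27me3 region, and the widest of each window and line is called the domain below. The Hoxc domain was the widest, with 161 kb in CGR8 and 173.2 kb in R1, and the Hoxd domain followed with 148 kb and 144.8 kb. The Hoxa domain measured 140.6 kb and 123 kb, and the Hoxb domain 120.6 kb and 127.2 kb. Their order by score was not their order by width. Per kb, the Hoxa domain scored 133 in CGR8 and 142 in R1, Hoxb 126 and 127, Hoxd 112 and 116, and Hoxc 85.0 and 92.0. The widest domain thus had the lowest score per kb in both lines, and this order of the 4 clusters was the same in both.

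Domain edges lay within 1 kb of each other in the 2 lines at 1 end each of Hoxa, Hoxb and Hoxd, and further apart elsewhere. The Hoxa domain ended at 52232800 in CGR8 and 0.6 kb earlier in R1, on the Hoxa13 side, while its other edge, on the Hoxa2 side, lay 17 kb further in for R1. The Hoxb domain ended at 96248400 in CGR8 and 0.4 kb later in R1, on the Hoxb1 side, and began 6.2 kb earlier in R1. The Hoxd domain differed by 0.8 kb at its start (74474401 in CGR8) and by 2.4 kb at its end. Hoxc differed at both edges, by 14.4 kb at the Hoxc13 side and by 26.6 kb at the Hoxc4 side. The bases shared by both lines' domains came to 87.5% (CGR8) and 100% (R1) of the Hoxa domain, to 100% and 94.8% of Hoxb, to 91.1% and 84.6% of Hoxc and to 97.8% and 100% of Hoxd.

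Most of the stretch was called in both lines even where the edges differed. Over the stretch from the first to the last base of either line's domain, H3K27me3 regions of any size covered 99.5% ± 0.704 in Hoxa, 97.4% ± 3.67 in Hoxb, 97.1% ± 1.73 in Hoxc and 99.5% ± 0.764 in Hoxd (SD, n = 2). In R1 the Hoxa domain was preceded by a region from 52087801 to 52108400 (score 1095), set off by 0.8 kb, the smallest break these H3K27me3 lists hold. That break fell inside an H3K4me3 region of 3.2 kb, the highest-scoring one of the R1 Hoxa window. In CGR8 a break of 3.2 kb divided the Hoxc domain from a region of 26.4 kb (102881601 to 102908000, score 1181). In R1 the Hoxd domain was followed after 0.8 kb by a region of 4.2 kb with a score of 61.9. The longest stretch of the Hoxc window without H3K27me3 in R1 (102702001 to 102724400, 22.4 kb) held in CGR8 a region of 8.0 kb with a score of 75.5 (percentile 7.31), and then the start of the CGR8 domain. On the far side of that stretch R1 had a region of 6.6 kb (score 97.9) 0.8 kb before its domain.

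Outside the domains the 4 windows were unlike. Around Hoxd no H3K27me3 was called for 24.4 kb on the Hoxd13 side and 27.6 kb on the Hoxd1 side of the window in CGR8, and for 25.2 kb and 25.0 kb in R1. Past the Hoxa13 side of Hoxa, after a break of 5.4 kb (CGR8) or 6.0 kb (R1), stood a region of 45.4 kb in CGR8 with a score of 3440. In R1 the same stretch was called as regions of 13.0 kb (score 501) and 27.4 kb (score 2445). On the other side of Hoxa 3 weak regions in CGR8 and 2 in R1, besides the split piece named above, scored 84.1 to 258. The Hoxb window opened, on the Hoxb13 side, with a second strong region of 54.4 kb (score 4370) in CGR8 and 47.2 kb (score 4631) in R1. Between it and the Hoxb domain lay a region of 13.2 kb (score 191) in CGR8 and of 12.4 kb (score 206) in R1, where a further region of 6.6 kb (score 68.4) adjoined the strong one. On the Hoxb1 side, 7.2 kb past the domain, CGR8 had a region of 31 kb (score 745) that reached out of the window, while the R1 list had none up to the window's end. Its partner in R1 (score 670) began outside the window. On the Hoxc13 side, Hoxc began with a region of 13.8 kb (score 213) in CGR8 and with regions of 9.8 kb and 11.2 kb (scores 119 and 113) in R1. Past the Hoxc4 side, Hoxc carried a chain of regions to the end of the window in both lines, the longest of 40 kb in each (scores 1251 and 1221), with regions of 13 kb (score 737) and 15.2 kb (score 518) beside it in CGR8 and of 12.2 kb (score 707) and 6.4 kb (score 141) in R1. H3K27me3 covered 90.1% ± 2.24 of the Hoxc window, 89.0% ± 1.35 of Hoxa, 82.2% ± 2.83 of Hoxb and 74.3% ± 0.354 of Hoxd (SD, n = 2). The windows differ in how far they reach past the genes, so these shares describe the windows used.

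**Figure D1:**
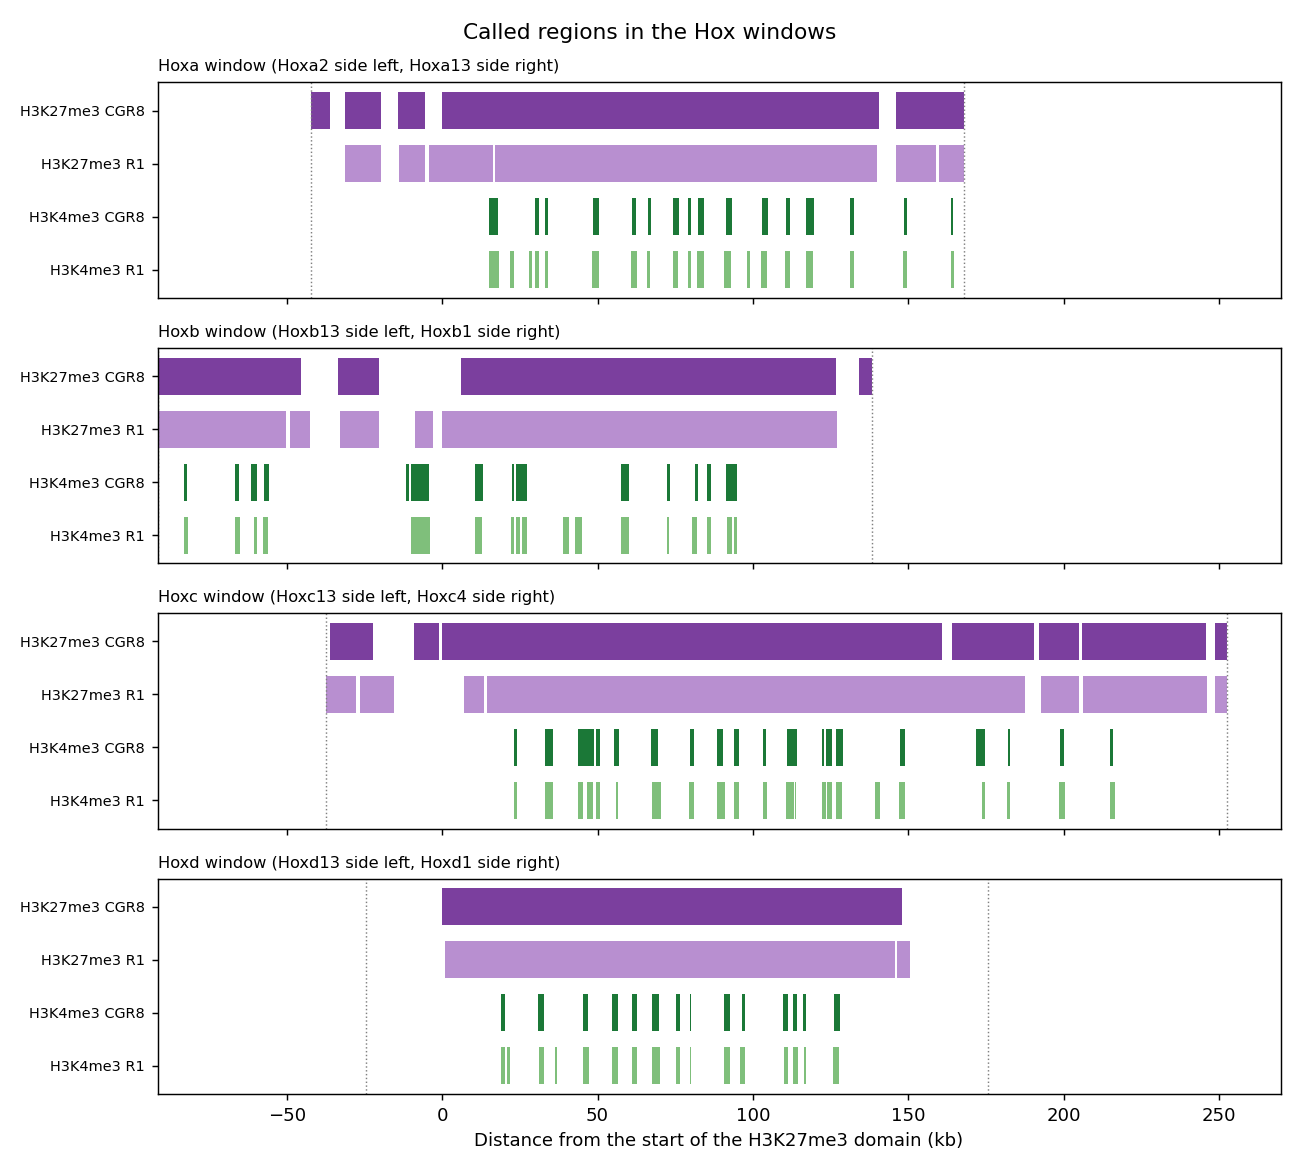
Regions called in the 4 Hox windows, against distance in kb from the start of the H3K27me3 domain (the first base of either line's domain); bars are called regions of each mark and line, and dotted lines are the window ends. The Hoxd domain stands alone in its window in CGR8 and is followed by a region of 4.2 kb in R1. In Hoxa, Hoxb and Hoxc, H3K27me3 continues further past the domain.

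Nearly all H3K27me3 regions of the windows met a call in the second line. This held for 15 of 17 CGR8 regions and for 19 of 20 R1 regions, against 67.1% and 81.1% of the whole lists. The 2 CGR8 exceptions were at 52048201 to 52056000 in Hoxa (score 104) and at 102708401 to 102716400 in Hoxc (score 75.5). The R1 exception, at 96112801 to 96118800 in Hoxb (6.0 kb, score 132), is taken up below. An H3K4me3 region of the same line overlapped 10 of 17 H3K27me3 regions in CGR8 and 11 of 20 in R1, against 41.3% and 48.8% of the whole lists.

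H3K4me3 lay in each cluster as a row of narrow regions. The Hoxc window held 19 in CGR8 and 22 in R1, Hoxa 16 and 19, Hoxb 14 and 17, and Hoxd 14 and 16. Each window had 2 or 3 more in R1, while the whole R1 list was the shorter (24618 regions against 25241). In Hoxb (from 96145201 and 96213001) and Hoxc (from 102761001 and 102828201), 1 CGR8 region was called as 2 in R1. Extra calls are thus not all extra places with the mark. The median width of the Hox regions was 1600 bp with either line, the same as that of all H3K4me3 regions with H3K27me3, against 2000 bp for the whole list. Within the domains the density was 11.9 ± 2.73 regions per 100 kb in Hoxa, 10.4 ± 1.58 in Hoxc, 10.3 ± 1.12 in Hoxd and 8.03 ± 1.98 in Hoxb (SD, n = 2). Hoxb was the lowest of the 4 in each line, with 6.63 in CGR8 and 9.43 in R1. Its R1 value was above the CGR8 value of Hoxc (9.32) and below both values of Hoxa and of Hoxd, and 2 lines allow no test.

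Spacing varied widely within each cluster, from neighbours 0.4 kb apart in Hoxb and Hoxc to the stretches given below, while the medians lay close together. The median distance from one H3K4me3 region of a domain to the next was 5.6 kb (CGR8) and 4.8 kb (R1) in Hoxd, 7.2 kb and 5.0 kb in Hoxa, 7.7 kb and 7.0 kb in Hoxc and 8.2 kb and 5.2 kb in Hoxb. Inside the domains, the longest stretch without H3K4me3 between regions was 14.4 kb (CGR8) and 14.0 kb (R1) in Hoxa, at the same place, from 52126401. It was 12.4 kb in each line in Hoxd, at different places. In Hoxc it was 18.2 kb in CGR8 and 24.6 kb in R1, also at different places. CGR8 had a free stretch of 22.8 kb at the place of the R1 one (from 102866401), which the end of the CGR8 domain divided. In Hoxb it was 30.0 kb in CGR8 (96149001 to 96179000) and 12.4 kb in R1, where 2 further regions lay within that stretch. Outside its domain, towards the Hoxb13 side, the Hoxb window held longer ones of 43.8 kb (CGR8) and 46.2 kb (R1). In the Hoxa window a stretch of 16 kb in each line ran across the domain's end on the Hoxa13 side.

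Most domain ends carried H3K27me3 without H3K4me3. On the Hoxb1 side the last H3K4me3 region ended 31.8 kb (CGR8) and 32.4 kb (R1) before the end of the Hoxb domain, the longest such end of the 4 clusters. On its Hoxb13 side 4.4 kb and 10.6 kb were free. In Hoxd the free ends measured 18.8 kb and 18 kb on the Hoxd13 side and 20 kb and 18 kb on the Hoxd1 side. In Hoxa the end on the Hoxa13 side was free for 8.0 kb and 7.6 kb. The Hoxa2 side of Hoxa and both sides of Hoxc depend on where the domain was split, with 15.2 kb and 0 kb for Hoxa, 23 kb and 8.6 kb for the Hoxc13 side and 12 kb and 4.8 kb for the Hoxc4 side.

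By score, Hox H3K4me3 regions pooled over the clusters stood in the lower part of their lists. Hoxd in CGR8 did not, with a median percentile of 52.0 and 6 of 14 regions below the median score of the list. The median percentile was 38.8 for the 63 regions of CGR8 and 33.9 for the 74 of R1, against 49.6 and 50.5 for all H3K4me3 regions that overlapped H3K27me3. Below the median score of the list were 41 of the 63 CGR8 regions and 57 of the 74 R1 regions (50% of each list lie there by definition), and none reached percentile 90 in either line. By cluster the median percentile was 46.7 ± 7.52 in Hoxd, 41.2 ± 0.569 in Hoxa, 34.5 ± 2.40 in Hoxc and 27.8 ± 1.19 in Hoxb (SD, n = 2). Over the whole windows, Hoxb stood below each of the others in both lines. Within the domains alone, the mean over the lines was 36.9 in Hoxb and 37.8 in Hoxc, so the distance between these clusters rests on regions outside the domains. There Hoxb was the lowest in neither line. It had 41.7 in CGR8, where Hoxa had 41.6, and 32.1 in R1, where Hoxc had 29.8.

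Each cluster had a few strong H3K4me3 regions among many weak ones. In Hoxa the strongest lay near the opposite ends of the row: 52107401 to 52110200 in CGR8 (score 1136, percentile 72.9; R1 score 1104) and 52209401 to 52212000 (score 1116, percentile 72.5; R1 score 978). The weakest shared Hoxa region, from 52202401 to 52204000, scored 54.7 and 62.5. In Hoxc the strongest was at 102750401 to 102753200, towards the Hoxc13 side, with scores of 1673 (percentile 82.6) in CGR8 and 1450 (percentile 78.9) in R1. The second scored 520 and 573, so a single region stood apart in Hoxc. In Hoxd the strongest, at 74542001 to 74544400, lay near the middle and scored 923 (percentile 67.8) in CGR8 and 941 (percentile 67.4) in R1. Hoxd had the row least dominated by a few regions. The 2 strongest regions held 33.8% (CGR8) and 32.2% (R1) of the summed score of its domain, against 42.8% and 36.4% in Hoxa, 46.9% and 44.0% in Hoxc and 51.3% and 47.1% in Hoxb, whose domain also held the fewest regions.

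The lowest scores came close to the lower limit of the lists, which was 38.5 in CGR8 and 37.3 in R1. The weakest region of each line was at 102839801 to 102840400 in Hoxc for CGR8 (score 38.6, called in R1 with 53.3) and at 102856601 to 102858400 in Hoxc for R1 (score 39.2, not called in CGR8). The weakest R1 region of Hoxb, at 96193801 to 96194600, scored 64.3. A Hoxd region of 400 bp at 74554001 to 74554400 is short enough for its score to be turned back into reads. It held 22 reads in CGR8 (95% exact Poisson interval 13.8 to 33.3) and 34 in R1 (23.5 to 47.5), scored as 47.7 and 85.1. The intervals overlap and cover counting error only. A missing call is thus no proof that a mark was lacking.

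Score was only loosely related to position along the clusters, and whether it followed a gradient was not tested. The rank correlation of score with position inside the domain, from the low to the high coordinate, was -0.41 (CGR8, 14 regions) and -0.096 (R1, 17 regions) in Hoxa and -0.36 (8 regions) and 0.077 (12 regions) in Hoxb. It was -0.064 (15 regions) and -0.29 (20 regions) in Hoxc and -0.38 (14 regions) and -0.22 (16 regions) in Hoxd. These values describe single libraries, and neighbouring regions share a cluster and a library. With the Hoxd domain cut into 3 equal stretches, from the Hoxd13 to the Hoxd1 side, the median score was 411, 373 and 78.3 in CGR8 and 439, 237 and 110 in R1. The order was thus alike in both lines, with the lowest median on the Hoxd1 side. In Hoxa, from the Hoxa2 side, the medians were 166, 204 and 71.4 in CGR8 and 224, 210 and 118 in R1. They were lowest on the Hoxa13 side in both lines. That stretch nevertheless held the second-strongest Hoxa region of each line (scores 1116 in CGR8 and 978 in R1). In Hoxb and Hoxc the lines differed. From the Hoxb13 side Hoxb had 419, 90.1 and 407 in CGR8 and 93.0, 99.6 and 147 in R1. From the Hoxc13 side Hoxc had 260, 118 and 333 in CGR8 and 123, 124 and 55.3 in R1. A stretch held 1 to 9 regions, and the stretches follow each line's own domain. The strong region at the Hoxd1 end (74600201 to 74602400, scores 659 and 542) goes against the order of the Hoxd medians.

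**Figure D2:**
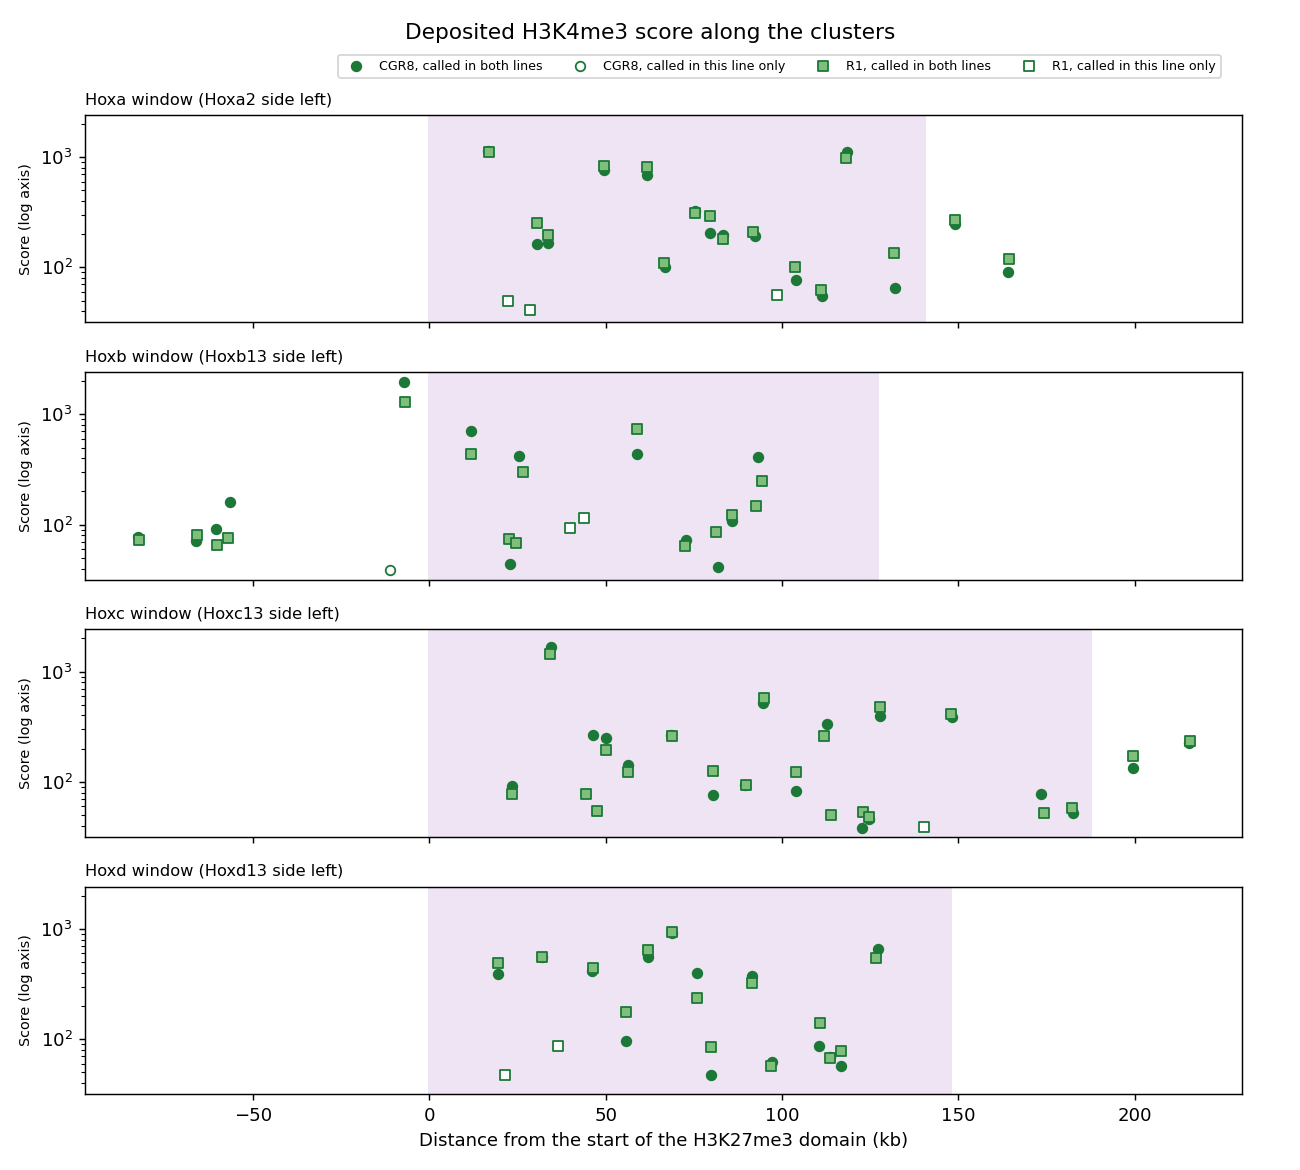
Deposited H3K4me3 score (log axis) of each region in the 4 windows, against distance in kb from the start of the H3K27me3 domain; circles are CGR8, squares R1, open symbols regions called in 1 line, and the shaded band is the stretch of the domain. Strong and weak regions both occur in each cluster. The highest value is a Hoxb region just outside the band, and the open symbols lie at 114 or below.

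Nearly all H3K4me3 regions of the windows overlapped H3K27me3, while most H3K27me3 bases carried no H3K4me3 call. Of the H3K4me3 regions, 61 of 63 (CGR8) and 74 of 74 (R1) overlapped H3K27me3, against 28.2% and 29.1% of the whole lists. H3K27me3 covered from 74.0% (Hoxd, CGR8) to 91.7% (Hoxc, CGR8) of a window, so most regions there would meet it wherever they lay. Called bases with both marks came to 36.3 ± 0.141 kb in the Hoxc window, 27.6 ± 3.39 kb in Hoxa, 26 ± 5.37 kb in Hoxb and 22 ± 1.41 kb in Hoxd (SD, n = 2). Both CGR8 regions without H3K27me3 were in the Hoxb window, between the domain and the region on the Hoxb13 side. Overlap in a list is not proof that 1 stretch of chromatin carried both.

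That place in Hoxb held the strongest H3K4me3 region of the Hoxb window in both lines, and in CGR8 of any Hox window. In R1 the Hoxc region with a score of 1450 stood above it. The Hoxb region ran from 96111601 to 96117400 in CGR8 (5.8 kb, score 1981, percentile 86.6) and to 96117800 in R1 (6.2 kb, score 1289, percentile 75.6). In CGR8 it lay in a stretch of 26.6 kb with no H3K27me3 call (96101201 to 96127800). In R1 the H3K27me3 region at 96112801 to 96118800 covered 5.0 kb of it, and the domain began 2.8 kb further on. So the line with the lower H3K4me3 score (log2 ratio R1 over CGR8 -0.62) was the one with an H3K27me3 call there. That call scored 132 (percentile 55.6 of the R1 list), well under the domains, and each line has 1 library, so the difference was not tested.

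Most H3K4me3 regions of the windows were called in both lines, by share more than in the whole list for CGR8 and fewer for R1. In CGR8 62 of 63 (98.4%) were found in R1, against 89.8% of the whole CGR8 list. In R1 66 of 74 (89.2%) were found in CGR8, against 92.6% of the R1 list. Among all H3K4me3 regions overlapping H3K27me3, the shares were 94.7% and 94.8%. The CGR8 list thus had 1 Hox region of its own and the R1 list 8. The fitted means for H3K4me3 were 0.740 (CGR8) and 0.706 (R1) reads per 200 bp. Whether depth bears on the regions called in 1 line was not tested. The CGR8 one, at 96109801 to 96110800 in Hoxb, scored 39.1 (percentile 0.553), at the limit of the list.

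The 8 regions of R1 alone were spread over all clusters and scored 39.2 to 114. Both Hoxb regions lay in the CGR8 stretch without H3K4me3, at 96160401 to 96162400 (score 93.0) and 96164401 to 96166600 (score 114, percentile 31.3). In Hoxd they were at 74495401 to 74496200 (score 47.6) and 74510601 to 74511200 (score 86.8). In Hoxa they were at 52114001 to 52115200 (score 49.6), 52120201 to 52121000 (score 40.8) and 52190201 to 52191200 (score 56.5). The Hoxc one, at 102856601 to 102858400, is named above. Each of the 8 overlapped H3K27me3 in R1. Over the whole R1 list the 1829 regions of R1 alone had a median score of 46.1, and the 8 Hox regions a median of 53.1.

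Where both lines had a call, scores kept nearly the same order. Regions that overlapped were joined into 62 pairs, with scores summed where a region met more than 1 partner. The rank correlation between lines across pairs was 0.95 in Hoxa (16 pairs), 0.92 in Hoxc (19) and Hoxd (14), and 0.75 in Hoxb (13), against 0.977 over all 22466 pairs, which span a wider range of scores. The pairs are not independent replicates. The median log2 ratio of R1 over CGR8 was 0.16 in Hoxa, 0.069 in Hoxc, 0.061 in Hoxd and -0.085 in Hoxb. It was 0.023 for the 6115 pairs elsewhere with H3K27me3 in both lines and -0.029 for all pairs. Each of the 4 cluster medians changed sign when the score was taken per kb, so no direction is given for a cluster. R1 was higher in 36 of 62 Hox pairs (58.1%), against 45.4% of all pairs and 53.3% of the pairs elsewhere with H3K27me3.

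More than 2-fold apart were 4 of the 62 Hox pairs (6.45%), against 3.75% of all pairs and 2.04% of those elsewhere with H3K27me3. They were at 52223401 to 52224800 in Hoxa (65.3 in CGR8, 135 in R1), at 96202001 to 96203800 in Hoxb (41.4 and 84.9), at 96063801 to 96066000 in Hoxb (162 and 75.5) and at 102761001 to 102766400 in Hoxc (268 and 131). Of these, 2 were higher in R1 and 2 in CGR8. With score per kb, 2 of them were less than 2-fold apart, with log2 ratios of 0.036 (from 1.04) at 96202001 and -0.58 (from -1.03) at 102761001. Hoxd had no pair over 2-fold by score. Per kb, its pairs from 74529001, 74549801 and 74590401 passed 2-fold by little, with log2 ratios of 1.04, -1.01 and 1.04. The share of all pairs past 2-fold per kb was not counted, so these pairs have no background to be set against. Among the stronger regions, smaller shifts by score were seen in Hoxb and Hoxd. In Hoxb, at 96132201 to 96134800 the score was 713 in CGR8 and 439 in R1, and at 96179001 to 96181800 it was 437 and 735. These regions of the same domain thus moved in opposite directions between the lines, by log2 ratios of -0.70 and 0.75. In Hoxd the region at 74549801 to 74551000 scored 398 in CGR8 and 237 in R1 (log2 ratio -0.74). These ratios kept their sign with score per kb.

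**Figure D3:**
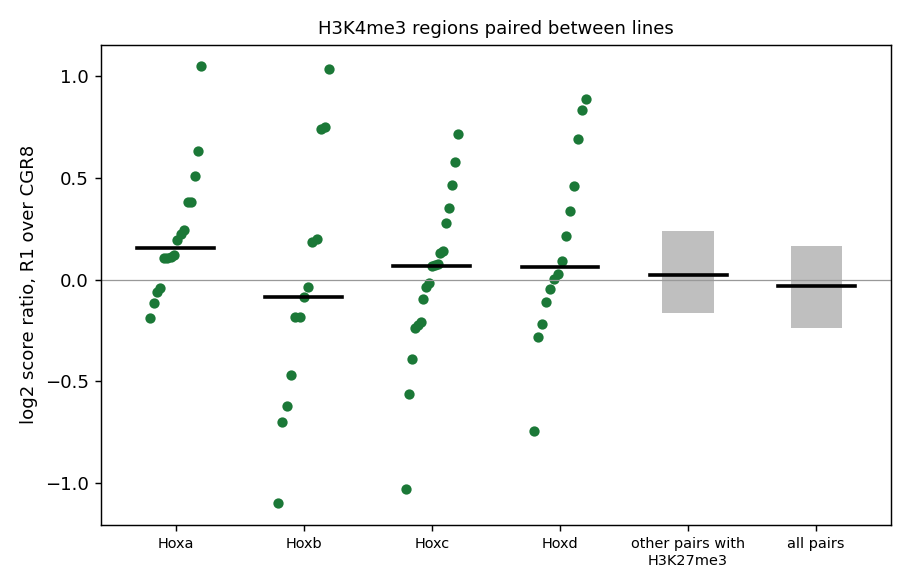
log2 ratio of the H3K4me3 score, R1 over CGR8, of each pair in the 4 clusters (points, drawn in order of value; bars are medians), beside the median and the middle 50% of pairs elsewhere with H3K27me3 and of all pairs (grey boxes). The cluster medians, -0.085 to 0.16, lie within the grey boxes and change sign with score per kb, and the points of Hoxb spread from -1.10 to 1.04.

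The H3K27me3 scores of the clusters were almost equal between the lines. With split pieces joined, the groups holding the domains had summed scores of 18746 in CGR8 and 18613 in R1 for Hoxa, 15205 and 16106 for Hoxb, 14871 and 16029 for Hoxc and 16552 and 16886 for Hoxd. The log2 ratios of R1 over CGR8 were -0.010, 0.083, 0.11 and 0.029. R1 was thus higher in 3 of these 4 groups, and in 6 of all 14 H3K27me3 pairs of the windows, against 26.2% of the 9274 H3K27me3 pairs. For the 43 other pairs of at least 50 kb the median was -0.17, and R1 was higher in 4.

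The clusters were set beside the other H3K27me3 regions of at least 50 kb, of which CGR8 had 31 and R1 20. These held a median of 3 H3K4me3 regions in CGR8 and 4 in R1, and at most 12 in each. In R1 the clusters held 12 to 20, and no other region held more than any of them. In CGR8 they held 8 to 15, and 2 other regions held more than the Hoxb domain. Since the Hox domains were also wide, the density says more: 6.63 to 9.96 per 100 kb in CGR8 and 9.43 to 13.8 in R1, against medians of 5.21 and 6.60. Hoxb in CGR8 lay below 12 of the 31 others, and Hoxa in R1 below 2 of 20, so by density the clusters were in the upper part of the range and not beyond it. H3K27me3 score per kb was 85.0 to 133 in CGR8 and 92.0 to 142 in R1, against medians of 60.1 and 63.7. In each line 1 other region was above Hoxa, Hoxb and Hoxd. Above Hoxc were 5 of 31 others in CGR8 and 2 of 20 in R1. The median H3K4me3 percentile within the domains, 41.6 to 52.0 in CGR8 and 29.8 to 41.3 in R1, lay within the range of the others (medians 35.5 and 32.5). These comparisons carry no test, since regions of 1 library are not replicates.

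**Figure D4:**
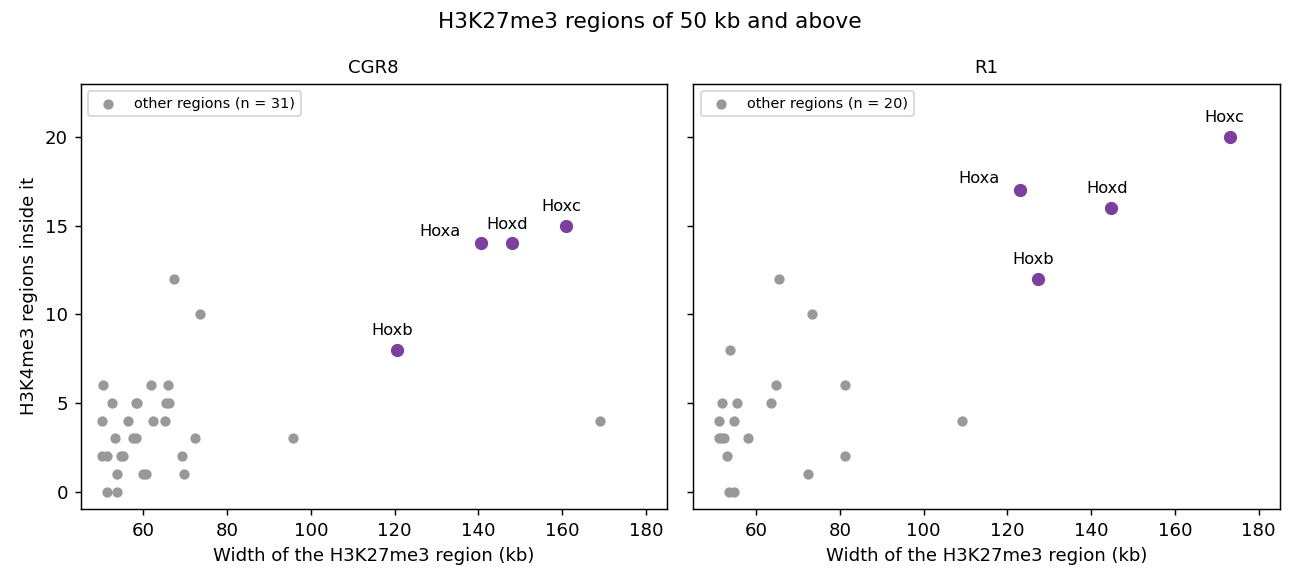
Number of H3K4me3 regions inside each H3K27me3 region of at least 50 kb, against its width in kb, in CGR8 (left) and R1 (right); purple points are the 4 Hox domains and grey points all others outside the Hox windows. The Hox domains hold 8 to 15 regions in CGR8 and 12 to 20 in R1, while the others hold at most 12.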

How the data were processed

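The data are 4 ChIP-seq libraries, 1 for each mark in each of the lines CGR8 and R1. Groups came from the sample titles, with the line as the replicate within a mark. Formaldehyde fixation and sonication are given per the labels' protocols. The antibody field names Millipore for H3K27me3 and Diagenode for H3K4me3, while the protocol names Diagenode for both. Per the submitters' processing notes the build was mm9 and the tools included Bowtie2 2.0.2, SICER 1.1 and bedtools 2.20.1. The sources used here name no settings or control. The authors deposited 1 list per library, with a score for each region and its start and end on a 200 bp grid. Starts were counted from 1. The closest neighbours of a list lay 800 bp apart for H3K27me3 and 400 bp for H3K4me3, so shorter breaks were joined before deposit, which lengthens H3K27me3 regions in particular.

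Regions were shared when they overlapped by 1 bp. A domain was the widest H3K27me3 region of a window in a line. Mean reads per window were solved from regions of up to 400 bp, whose scores equalled summed negative log Poisson probabilities within 1e-06 (8 of 8, 2 of 2, 144 of 144 and 155 of 155 regions). Overlap and pairing were tested on simulated data. Regions were named by rule where they were H3K27me3 regions of a window, the highest or lowest H3K4me3 region of a cluster and line, or H3K4me3 regions of 1 line. Other regions and all printed promoters were picked after their values were seen. The windows, members and lists were chosen with earlier results of these data known. Alternatives changed the joining, score limit, overlap, pairing, scale, window and library. Python 3.11.15, numpy 2.4.6, scipy 1.17.1, pandas 2.3.3 and matplotlib 3.10.9 were used.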

Additional observations from a re-analysis of the deposited data

How the results depend on the processing

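Of 120 values recomputed with both lines under other settings, 87 stayed within a set limit, 27 moved further and 6 changed sign. The limit was the spread between lines, 1.5 times for counts, and the spread between pairs for log2 ratios. Some of the 87 could not move. The density in the domains does not depend on the window, and all pairs of Hoxa and Hoxd already had single partners. The higher of the lowest H3K4me3 scores left out no Hox region. With the higher-scoring 50% of each list, the number of H3K4me3 regions fell to a mean of 4 in Hoxa, 4 in Hoxb, 4.5 in Hoxc and 7 in Hoxd, and the density in the domains to 3.05, 2.44, 2.71 and 4.77 per 100 kb. The median distance became 30.2, 25.95, 23.95 and 12.4 kb and the median percentile 67.3, 58.0, 54.0 and 55.9, since weak regions were left out. Joining regions less than 1000 bp apart gave 8.74 per 100 kb in Hoxc, a distance of 9.3 kb in Hoxb and percentiles of 39.8 in Hoxa and 30.5 in Hoxb. With windows narrowed to the domain, Hoxb had a mean of 10 H3K4me3 regions, and percentiles were 36.9 in Hoxb and 37.8 in Hoxc. With windows 50 kb wider on each side, the distance was 7.35 kb in Hoxd, the percentile 39.5 in Hoxc, and 91.8% of H3K4me3 regions overlapped H3K27me3, against 98.4%. With the higher of the lowest scores as a common limit, H3K27me3 covered 73.2% of the Hoxd window. The median log2 ratio changed sign with score per kb in Hoxa (-0.12), Hoxb (0.036), Hoxc (-0.10) and Hoxd (-0.038), and within the domain in Hoxb (0.084) and Hoxc (-0.017), and the cause was not tested. Leaving out a line gives the values of the other, which the report prints. Such values cannot differ from the mean of 2 lines by more than their SD and say nothing about stability. No paired analysis was possible because each line and mark has 1 library and no test was run.

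Depth limits weak regions most: total reads are unknown, and a region not called in a line is not shown to be absent there.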
